A study of Mus musculus with 20 samples.

Results

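The carboxylesterase genes Ces1c, Ces1d, Ces1e, Ces1f, Ces1g, Ces2a, Ces2c, Ces2e, Ces3a and Ces3b were examined by RNA-seq in mouse liver. They were selected by symbol, and each of the 10 symbols matched 1 row among the 25444 gene loci listed. Livers came from 20 untreated mice aged 20 weeks, 5 of each sex from each of 2 inbred strains, C57BL/6N (B6) and C3H/HeN (C3). The left lateral lobe of each mouse gave 1 ribosomal RNA-depleted total RNA library. None of the groups carried an engineered allele. All mice came from Taconic, were housed singly and were moved from NIH-31 to NTP2000 diet before sampling. Each sex had its own room, and effects of sex and of room cannot be told apart.

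Carboxylesterases are serine hydrolases that cleave esters and amides. Most mammalian members are made with an endoplasmic reticulum signal and many end in a retention signal, so that they act in the lumen of the endoplasmic reticulum of hepatocytes, while some are secreted into plasma. They convert ester drugs, prodrugs and toxicants, and several hydrolyse neutral lipids that feed the assembly of very low density lipoproteins. In rodents the family is expanded into tandem arrays, with several similar genes where humans have a single copy.

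All 20 livers carried the hepatocyte programme. Summed levels of 7 hepatocyte markers were at least 86752 TPM, a unit in which counts are divided by gene length and scaled to the same total in each library. Adipocyte, exocrine pancreas and kidney tubule marker sums did not exceed 0.307, 0.0676 and 0.0233 TPM, with Lep, Pnlip, Cela3b and Slc12a1 at 0 in every library. Of the enterocyte markers, Fabp2 was present at group means of 109 to 135 TPM and Vil1 at 0.0863 to 0.431 TPM, and Sis was near 0. The hepatocyte sum was 115632 to 147949 TPM in females and 86752 to 116755 in males of B6. In C3 it was 152077 to 182182 and 115312 to 142217 TPM. The hepatocyte sum did not overlap between the sexes of C3 or between the females of the strains. By edgeR 0 of its 7 markers were called between the sexes, against 6.34% of all genes in B6 and 6.90% in C3. Their median log2 value (female over male) was -0.022 in B6 and -0.24 in C3. That of C3 over B6 in females was -0.13. Where the sums did not overlap, these medians had the opposite direction. Summed markers of other liver cell types also differed in range between the groups. The Kupffer sum of 5 markers was 335 to 441 TPM in females and 202 to 319 in males of B6, and 232 to 345 and 146 to 219 in those of C3. The stellate sum was 330 to 393 TPM in females and 246 to 282 in males of B6. In C3 it was 261 to 296 and 192 to 231 TPM. In the same order, the endothelial sum was 230 to 278, 176 to 199, 202 to 254 and 166 to 200 TPM, and the lymphocyte sum 10.3 to 13.1, 5.68 to 10.2, 5.91 to 10.4 and 3.21 to 4.14. The Kupffer, stellate, endothelial and lymphocyte sums were each higher in females, without overlap between the sexes in either strain. Of single markers between the sexes, Vsig4 of Kupffer cells was called higher in females (log2 0.75 in B6 and 0.51 in C3) and Sox9 of cholangiocytes higher in males (-1.42 and -0.84), while Ptprc of lymphocytes was called higher in females of C3 (0.74). Between the strains, Apoa1 was called higher in C3 (0.84 in females and 0.71 in males) and Glul lower (-0.75 and -0.95), both hepatocyte markers, with Cyp2e1 lower in females (-0.53). Of the Kupffer markers, Vsig4 (-0.81 in females and -0.57 in males) and Adgre1 (-0.94 and -0.91) were called lower in C3, and Clec4f in females (-0.55). Sox9 was called higher in C3 females (0.85), and Ptprc lower in C3 males (-0.74). The cholangiocyte sum stayed between 3.29 and 6.07 TPM. Sox9 did not stand for the 4 cholangiocyte markers. Their median log2 value (female over male) was 0.057 in B6 and 0.42 in C3, and that of C3 over B6 in females was -0.012. The part of these cell type markers in the carboxylesterase differences was not tested, and in bulk tissue fewer cells of a type cannot be told apart from less RNA per cell. Libraries held 27370921 to 46835745 counts and were sequenced in 3 pools, with each group in every pool. Pools 1, 2 and 3 held 2, 1 and 2 livers of every group but C3 males, of which they held 2, 2 and 1, so that within-pool values rest on 1 or 2 livers a group and have no error of their own.

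The 10 genes lie in a pair of arrays on chromosome 8 (mm9). The Ces1 genes run on the minus strand, with Ces1c at chr8:95622915-95655182, Ces1d at chr8:95689971-95721703, Ces1e at chr8:95725117-95753518, Ces1f at chr8:95780135-95803635 and Ces1g at chr8:95826268-95861108. The Ces2 and Ces3 genes run on the plus strand, with Ces2a at chr8:107257903-107265534, Ces2c at chr8:107370968-107378382, Ces2e at chr8:107450160-107458572, Ces3a at chr8:107572499-107582314 and Ces3b at chr8:107607655-107617491. Coding sequences were 72.6 to 81.6% identical within the Ces1 branch, 82.4 to 83.7% within the Ces2 branch and 95.3% between Ces3a and Ces3b, against 54.7 to 60.3% between branches. Likeness of this kind bears on counting, since reads that fit several places were not counted. Ces2c shared 69.0% of its transcript's 50-base words with other genes, 67.5% with the pseudogene Ces2d-ps. Ces3a and Ces3b shared 30.9% and 26.1% of their words with each other, and Ces1c shared 13.4% with other genes, 10.7% with Ces1b. The remaining 6 members shared at most 3.36%. Absolute levels of Ces2c, Ces3a, Ces3b and Ces1c may therefore be less certain than those of the other members. The reads were paired and longer than 50 bases, so a shared word need not remove a read pair. The effect on levels and on fold changes was not tested.

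The transcripts of the 10 genes together made up about 1% of all TPM, and which gene dominated them differed between the sexes. The summed level of the 10 genes in B6 was 10314 ± 476 TPM (SD, n = 5) in females and 9585 ± 389 in males, or 1.03% and 0.959% of all TPM. In C3 it was 8437 ± 1100 and 9583 ± 663 TPM, or 0.844% and 0.958%. Ces1c, which encodes the plasma carboxylesterase Es1, was the most abundant member in females, with 53.0 ± 1.82% of the summed level in B6 and 47.9 ± 3.79% in C3. In males its share was 28.3 ± 3.01% and 27.3 ± 3.18%. Ces3a, an endoplasmic reticulum esterase of liver, took 36.9% of the sum in B6 males and 38.6% in C3 males, against 19.8% and 19.7% in females. Ces1c stood above Ces3a in 5 of 5 livers of B6 females and 5 of 5 of C3 females, but in 1 of 5 of B6 males and 0 of 5 of C3 males.

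**Figure D1:**
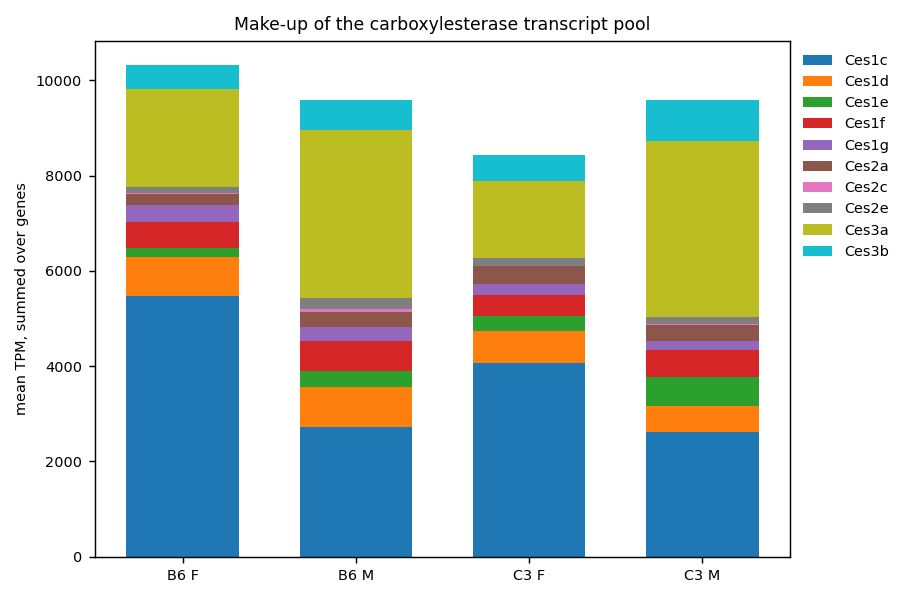
Mean TPM of each carboxylesterase gene (colours), stacked for the 4 groups of 5 mice (bars from 0). The Ces1c layer is 5471 and 4068 TPM thick in B6 and C3 females and 2720 and 2623 in males, while the Ces3a layer is 2048 and 1618 in females and 3527 and 3694 in males.

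By branch, the 5 Ces1 members summed to 7390 ± 436 TPM in females and 4814 ± 680 in males of B6. In C3 they summed to 5726 ± 1152 and 4526 ± 487 TPM. The Ces3 genes summed to 2552 ± 532, 4152 ± 643, 2173 ± 362 and 4544 ± 506 TPM in the same order. The Ces2 genes were the smallest branch, with 372 ± 84.4, 620 ± 148, 539 ± 188 and 513 ± 110 TPM. Averaged over all 20 livers, Ces1c ranked 32 and Ces3a 45 among all loci by TPM, and Ces2c ranked 3358. The order of the middle members was not settled by these samples. In B6 females the ranges of neighbouring genes overlapped all the way from Ces1d through Ces1f, Ces3b, Ces1g, Ces2a and Ces1e to Ces2e, and in every group between 5 and 6 of the 9 neighbouring pairs overlapped. Among the overlapping pairs in males of both strains were Ces3a and Ces1c. Ces2c was last in every group and separate from the gene above it, at 17.3 ± 8.10 and 75.1 ± 30.7 TPM in B6 and 3.84 ± 0.728 and 14.5 ± 5.10 in C3, females first.

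**Figure D2:**
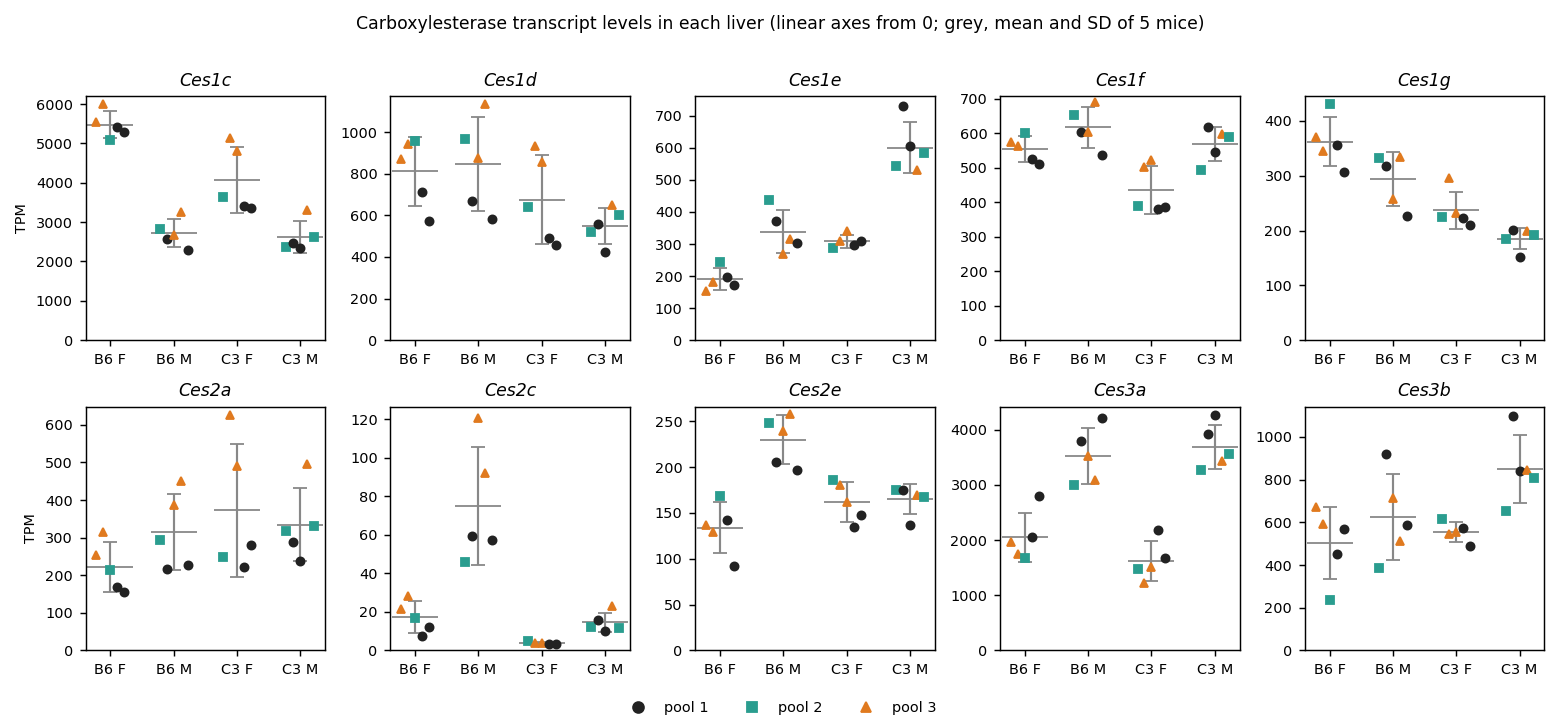
Level of each gene in each liver in TPM on linear axes from 0, by group, with symbols for the sequencing pool and the mean and SD of 5 mice in grey. Female and male livers are separate in both strains for Ces1c, Ces1e, Ces2c and Ces3a, and the pool 3 livers of Ces2a lie above the others of their group.

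To assess sex-biased expression, females were compared with males within each strain. Calls required an adjusted P-value under 0.001 in edgeR's quasi-likelihood test, adjusted over 13704 genes, with a log2 fold change above 0.5 or below -0.5. In B6, 6 of the 10 genes were called, with Ces1c female-biased and Ces1e, Ces2a, Ces2c, Ces2e and Ces3a male-biased, where 6.34% of all genes tested were called (3.23% female-biased and 3.12% male-biased). In C3, 4 of the 10 were called, and all 4 of these (Ces1e, Ces1f, Ces2c and Ces3a) were male-biased, against 6.90% of all genes (4.11% female-biased and 2.79% male-biased). An adjusted P-value under 0.05 alone was met by 7 members in B6 and 6 in C3, and by 34.6% and 40.0% of all genes. The median log2 fold change (female over male) of the 10 genes was -0.53 in B6 and -0.34 in C3, and that of all genes tested was 0.0018 and 0.015. In TPM, 5 genes in B6 and 6 in C3 had no overlap between 5 female and 5 male livers, where 12.4% and 14.6% of all genes had none. With pool 3 left out, an alternative chosen after seeing the data, 3 of the 10 were called in B6 and 4 in C3, against 2.78% and 3.13% of all genes.

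**Figure D3:**
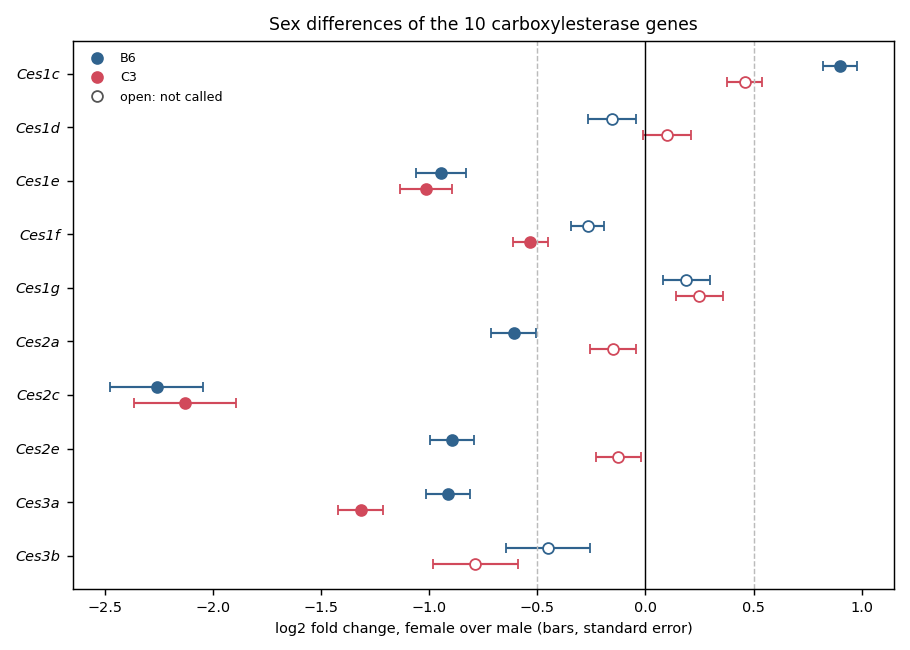
Log2 fold change of females over males for each gene in B6 and C3 (points, with standard errors as bars). Filled points were called and dashed lines mark the 0.5 limit. Ces1c lies at 0.90 in B6 and 0.46 in C3, Ces2c at -2.26 and -2.13, and Ces2e at -0.90 and -0.12.

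Ces1c was the 1 member called female-biased, and this in B6. Its level in TPM was 5545, 6008, 5097, 5411 and 5294 in the 5 B6 females and 2830, 2560, 2662, 3247 and 2299 in the B6 males. In C3 it was 3645, 5128, 4801, 3416 and 3353 in females and 2373, 2468, 2347, 3304 and 2625 in males. Females were above males without overlap in both strains, though in C3 the highest male, at 3304 TPM, was close to the lowest female. The fold change was 1.86 in B6 (log2 0.90 ± 0.080, standard error, adjusted P-value 1.11e-07). In C3 it was 1.37 (log2 0.46 ± 0.081, adjusted P-value 3.05e-04), short of the fold change limit, while upper-quartile normalization gave 0.52 and limma on TPM 0.57, which were called. Within pools the log2 values were 1.02, 0.77 and 0.84 in B6 and 0.41, 0.44 and 0.43 in C3. Without C3 male replicate 4, the C3 difference was called at 0.51.

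Ces1e and Ces1f were the male-biased genes of the Ces1 branch. Ces1e encodes egasyn, the esterase that holds beta-glucuronidase in the endoplasmic reticulum. Its level was 153, 183, 243, 198 and 174 TPM in B6 females and 436, 371, 268, 316 and 305 in B6 males. In C3 females it was 289, 310, 342, 297 and 308 TPM, and in C3 males 545, 732, 606, 532 and 585. The sexes did not overlap in either strain, and Ces1e was 1.93-fold higher in males in B6 (log2 -0.95 ± 0.12, adjusted P-value 7.58e-06) and 2.02-fold higher in C3 (log2 -1.01 ± 0.12, adjusted P-value 4.36e-06). With pool 3 left out, the B6 difference kept its size (-0.95) with an adjusted P-value of 0.0014. Ces1f, a triacylglycerol hydrolase related to Ces1d, was at 554 ± 36.9 TPM in B6 females and 616 ± 58.5 in B6 males (log2 -0.27 ± 0.077, adjusted P-value 0.013, not called). In C3 it was at 388, 502, 522, 380 and 384 TPM in females and 493, 617, 544, 596 and 589 in males, which overlap. It was called in C3 at log2 -0.53 ± 0.079 (adjusted P-value 5.99e-05), close to the limit, and the call was lost without C3 female replicate 1 or C3 male replicate 2 (-0.48 each), under upper-quartile normalization (-0.47) and by limma on TPM (-0.42). The interaction term of Ces1f was -0.26 (adjusted P-value 0.24).

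The other Ces1 members showed no sex difference past the thresholds. Ces1d is the triacylglycerol hydrolase that mobilises stored lipid for lipoprotein secretion. Ces1d was at 812 ± 165 TPM in females and 845 ± 225 in males of B6, and at 675 ± 214 and 550 ± 85.8 in those of C3, with log2 values of -0.15 ± 0.11 in B6 and 0.10 ± 0.11 in C3. Ces1g, an esterase whose loss in mice is known to raise hepatic lipid, was at 362 ± 45.0 and 294 ± 48.9 TPM in B6 females and males and at 237 ± 33.9 and 185 ± 19.9 in C3. The log2 values were 0.19 ± 0.11 (adjusted P-value 0.19) and 0.25 ± 0.11 (adjusted P-value 0.079). In C3 the female and male livers of Ces1g did not overlap.

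The Ces2 branch held the largest sex difference among the 10 genes. Ces2c belongs to the carboxylesterases that act on acyl esters with bulky alcohol groups and on acylglycerols. Its level was 21.5, 28.4, 16.9, 7.41 and 12.3 TPM in B6 females and 45.8, 59.5, 121, 92.0 and 57.2 in B6 males. In C3 females it was 5.05, 3.68, 3.89, 3.35 and 3.22 TPM, and in C3 males 12.4, 15.6, 10.02, 22.9 and 11.6. Every male lay above every female of its strain, and the male level was 4.79-fold higher in B6 (log2 -2.26 ± 0.21, adjusted P-value 2.59e-07) and 4.37-fold higher in C3 (log2 -2.13 ± 0.24, adjusted P-value 1.97e-06). The log2 values were -2.73, -1.51 and -2.22 in pools 1, 2 and 3 in B6 and -1.99, -1.35 and -2.73 in C3. Counts of Ces2c ran from 100 in the lowest liver to 4780 in the highest.

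Ces2e and Ces2a were called male-biased in B6 and not in C3. Ces2e was at 137, 129, 169, 142 and 92.4 TPM in B6 females and 249, 206, 240, 258 and 197 in B6 males, without overlap. It was at 186, 180, 162, 134 and 148 TPM in C3 females and 176, 175, 136, 169 and 167 in C3 males, which overlap almost fully. The log2 fold change was -0.90 ± 0.10 in B6 (adjusted P-value 2.85e-06) and -0.12 ± 0.10 in C3 (adjusted P-value 0.35). Leaving out pool 3, the B6 value was -0.79 (adjusted P-value 0.0043). Ces2a was at 221 ± 66.2 TPM in B6 females and 315 ± 102 in B6 males, with overlap. Its log2 value in B6 was -0.61 ± 0.10 (adjusted P-value 2.12e-04), and -0.15 ± 0.11 in C3. The Ces2a call in B6 was lost without B6 male replicate 1 (-0.58, adjusted P-value 0.0011), with pool 3 left out (-0.55, adjusted P-value 0.0056), without the pool term (-0.62, adjusted P-value 0.15) and by limma on TPM (-0.50, adjusted P-value 0.0016). In pools 1, 2 and 3 of B6 the Ces2a values were -0.59, -0.53 and -0.69.

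The bases upstream of Ces2c and Ces2e are printed because neighbouring genes of one array differed this much in level and in sex bias. Each run is the 250 bases before the annotated start, read 5′ to 3′ on the coding strand of mm9, and capitals mark stretches of at least 8 identical aligned letters. These windows, chr8:107370718-107370967 (+) and chr8:107449910-107450159 (+), were 52.3% identical, with 1 such stretch of 9 letters.
Ces2c: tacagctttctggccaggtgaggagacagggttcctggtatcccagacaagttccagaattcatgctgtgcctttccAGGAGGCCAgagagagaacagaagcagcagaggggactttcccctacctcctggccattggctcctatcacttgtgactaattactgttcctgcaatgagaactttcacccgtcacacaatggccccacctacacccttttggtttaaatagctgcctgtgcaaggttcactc
Ces2e: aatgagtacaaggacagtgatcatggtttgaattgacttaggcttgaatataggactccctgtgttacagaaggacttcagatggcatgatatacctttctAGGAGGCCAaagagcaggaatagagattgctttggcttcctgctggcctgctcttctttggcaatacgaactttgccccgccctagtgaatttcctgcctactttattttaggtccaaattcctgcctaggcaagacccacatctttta

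Ces3a was male-biased in both strains. Its level was 1962, 1739, 1677, 2061 and 2799 TPM in B6 females and 2992, 3803, 3524, 3096 and 4220 in B6 males. In C3 it was 1484, 1220, 1519, 2185 and 1682 TPM in females and 3280, 3924, 4269, 3436 and 3563 in males. No female reached the lowest male of its strain, and males were higher by 1.88-fold in B6 (log2 -0.91 ± 0.10, adjusted P-value 1.84e-06) and by 2.49-fold in C3 (log2 -1.32 ± 0.10, adjusted P-value 2.22e-08). Within pools the lowest and highest log2 values were -0.97 and -0.86 in B6, and -1.49 and -1.18 in C3. Ces3b, its neighbour with a nearly identical coding sequence, was not called in either strain. It was at 673, 594, 235, 449 and 569 TPM in B6 females and 388, 919, 716, 514 and 587 in B6 males, which overlap. In C3 it was at 614, 546, 553, 574 and 488 TPM in females and 653, 1099, 842, 845 and 809 in males, without overlap. The log2 values were -0.45 ± 0.19 in B6 (adjusted P-value 0.080) and -0.79 ± 0.20 in C3 (adjusted P-value 0.0045). The C3 difference of Ces3b was called without C3 female replicate 1 (-1.05, adjusted P-value 6.75e-04) and by DESeq2 (-0.80, adjusted P-value 2.69e-04).

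Next, C3 was compared with B6 within each sex. In females, 4 of the 10 genes were called, with Ces1e and Ces2a higher and Ces1g and Ces2c lower in C3, where 9.40% of all genes were called (4.63% higher and 4.77% lower). In males, 3 were called, with Ces1e higher and Ces1g and Ces2c lower in C3, against 9.64% of all genes (4.09% higher and 5.55% lower). An adjusted P-value under 0.05 alone was met by 8 members in females and 7 in males, and by 32.9% and 34.5% of all genes. The median log2 fold change (C3 over B6) of the 10 genes was -0.25 in females and 0.017 in males, beside 0.019 and 0.015 for all genes. In TPM, 3 genes in females and 4 in males had no overlap between strains, where 12.9% and 15.3% of all genes had none. With pool 3 left out, 1 gene was called in females (Ces1c) and 1 in males (Ces2c), against 4.58% and 5.75% of all genes. The strain and sex comparisons share their livers, so they are given side by side and not as support for each other.

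**Figure D4:**
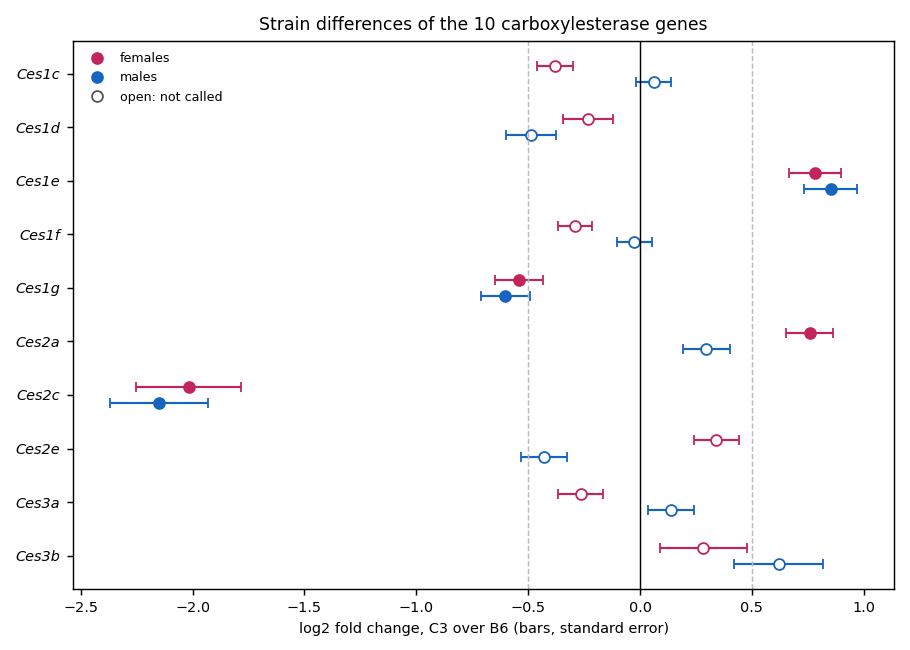
Log2 fold change of C3 over B6 for each gene in females and males (points, with standard errors as bars). Filled points were called and dashed lines mark the 0.5 limit. Ces2c lies at -2.02 in females and -2.15 in males, Ces1e at 0.78 and 0.85, and Ces1g at -0.54 and -0.60.

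Ces2c was lower in C3 in both sexes. The C3 female range of 3.22 to 5.05 TPM and the B6 female range of 7.41 to 28.4 did not overlap, nor did 10.02 to 22.9 in C3 males and 45.8 to 121 in B6 males. B6 was higher by 4.05-fold in females (log2 -2.02 ± 0.23, adjusted P-value 1.93e-06) and by 4.44-fold in males (log2 -2.15 ± 0.22, adjusted P-value 3.12e-07). B6 females and C3 males overlapped. Within pools it was -1.43, -1.70 and -2.62 in females and -2.17, -1.87 and -2.11 in males. Leaving out pool 3, the value in females was -1.59 (adjusted P-value 0.0012).

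Ces1e was higher in C3 in both sexes. No C3 female, from 289 TPM, was below the highest B6 female of 243, and the lowest C3 male of 532 was above the highest B6 male of 436. The fold change was 1.72 in females (log2 0.78 ± 0.12, adjusted P-value 4.31e-05) and 1.80 in males (log2 0.85 ± 0.12, adjusted P-value 1.66e-05). In pools 1, 2 and 3 the values were 0.80, 0.28 and 1.03 in females and 1.04, 0.43 and 0.96 in males, where pool 2 compares 1 female with 1 female and 2 C3 males with 1 B6 male. Leaving out pool 3, they were 0.60 (adjusted P-value 0.017) and 0.80 (adjusted P-value 0.0018). The highest group mean of Ces1e was in C3 males and the lowest that of B6 females, 600 ± 79.6 against 190 ± 34.0 TPM, with B6 males and C3 females in between and overlapping.

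Ces1g was lower in C3 near the limits of the test. Its level was 371, 346, 431, 357 and 307 TPM in B6 females and 224, 296, 233, 224 and 210 in C3 females. It was 333, 318, 257, 334 and 227 TPM in B6 males and 184, 201, 152, 198 and 191 in C3 males. The strains did not overlap in either sex. The log2 fold change was -0.54 ± 0.11 in females (adjusted P-value 7.66e-04) and -0.60 ± 0.11 in males (adjusted P-value 3.03e-04). In females, 12 of the 20 single-liver omissions ended the call, with log2 values from -0.57 to -0.47 and adjusted P-values from 0.0010 to 0.0040. These were B6 female replicates 1, 3 and 4, B6 male replicates 1 and 4, C3 female replicates 1, 3, 4 and 5, and C3 male replicates 1, 4 and 5. In males, 5 did so (B6 male replicates 1 and 2 and C3 male replicates 1, 3 and 5), with log2 values from -0.59 to -0.54. Both calls were also lost without the pool term and with only the groups compared in the fit. Leaving out pool 3, the log2 values were -0.67 and -0.64, with adjusted P-values of 0.0058 and 0.0040.

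Ces2a was called in females and not in males. It was at 254, 316, 214, 168 and 154 TPM in B6 females and 249, 625, 489, 221 and 280 in C3 females, which overlap. In males it was at 293, 217, 386, 451 and 227 TPM in B6 and 317, 287, 238, 495 and 331 in C3. The log2 values were 0.76 ± 0.10 in females (adjusted P-value 1.56e-05) and 0.30 ± 0.10 in males (adjusted P-value 0.036), and their difference was not called (adjusted P-value 0.11). The highest livers of each group were those of pool 3, and with that pool left out the female value was 0.56 (adjusted P-value 0.0042). It was 0.81 without the pool term (adjusted P-value 0.049) and 0.75 with only the female groups fitted (adjusted P-value 0.0020), and was called in neither. The female values within pools were 0.72, 0.24 and 1.03.

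Other members differed between the strains by less. Ces1d was lower in C3 males at -0.49 ± 0.11 (adjusted P-value 0.0024), which was called without C3 male replicate 2 (-0.60, adjusted P-value 3.34e-04), by limma on TPM (-0.55) and with the replicate number as a block (-0.53), and was at -0.23 ± 0.11 in females. Ces1c was at -0.38 ± 0.079 in females (adjusted P-value 0.0011) and 0.060 ± 0.080 in males, and Ces2e was at 0.34 ± 0.10 in females (adjusted P-value 0.015) and -0.43 ± 0.10 in males (adjusted P-value 0.0034). Leaving out pool 3, the Ces1c value in females was -0.54 (adjusted P-value 7.21e-04) and was called. Ces3b was at 0.28 ± 0.19 in females and 0.62 ± 0.20 in males (adjusted P-value 0.021). Ces1f and Ces3a lay between -0.29 and 0.14 in both sexes, and none of their strain differences was called.

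A sex-by-strain interaction term tested whether the sex difference itself differed between C3 and B6. By edgeR's quasi-likelihood test 0 of the 10 genes were called, where 0.401% of all genes were. Unadjusted p was under 0.05 for 5 of the 10, against 16.1% of all genes, and adjusted p for 2, against 2.96%. DESeq2 called 1 member and limma 0. Leaving out pool 3, 0 were called by edgeR, against 0.0293% of all genes. Ces2e had the largest term, 0.77 ± 0.15 (adjusted P-value 0.0051), meaning that its male bias of 1.86-fold in B6 was 1.09-fold in C3. DESeq2 called it (adjusted P-value 7.12e-05). The Ces2e term was 0.72, 0.64 and 0.89 within pools, and 0.66 (adjusted P-value 0.28) with pool 3 left out. Ces1c had a term of -0.44 ± 0.11 (adjusted P-value 0.040), its female bias being smaller in C3, with -0.61, -0.34 and -0.42 within pools and -0.54 (adjusted P-value 0.070) with pool 3 left out. For Ces2a it was 0.46 ± 0.15 (adjusted P-value 0.11), and for Ces3a -0.40 ± 0.14 (adjusted P-value 0.15). The terms of Ces1e, Ces1g and Ces2c were -0.069 ± 0.17, 0.061 ± 0.15 and 0.13 ± 0.31, so equal bias of Ces2c in the strains is not shown.

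Levels also varied with the sequencing pool, which each group shared. The pool term, tested after seeing the data, passed an adjusted P-value of 0.001 for Ces1d, Ces2a and Ces3a, where 35.0% of all genes did. Ces2a was higher in pool 3 than in pool 1 by 0.91 ± 0.085 on the log2 scale, and its pool 3 livers were above all others in 4 of 4 groups. Ces1d was higher in pool 3 by 0.59 ± 0.091 and in pool 2 by 0.43 ± 0.099. Ces3a was lower, by -0.41 ± 0.082 in pool 3 and -0.40 ± 0.092 in pool 2. For Ces2c the pool 3 difference was 0.79 ± 0.18 (adjusted P-value 0.0020). All comparisons were fitted with the pool as a term.

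**Figure D5:**
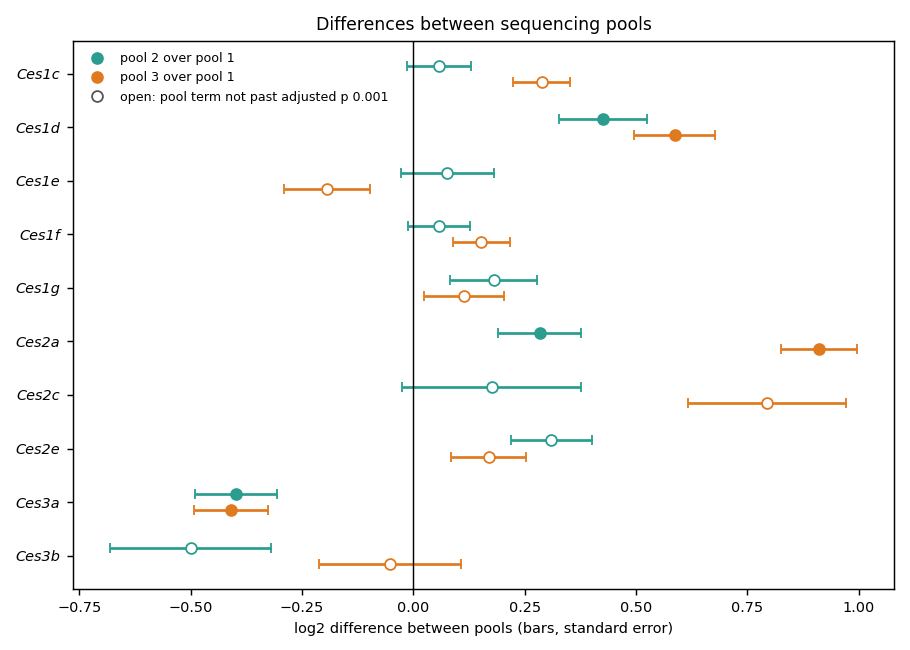
Log2 difference of pool 2 and pool 3 from pool 1 for each gene, from the fit with group and pool (points, with standard errors as bars). Ces2a in pool 3 stands farthest from 0 at 0.91, Ces1d lies at 0.59, and Ces3a lies at -0.41.

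Other genes of the family were examined beside these members. Of 10 listed, 9 were in the table and 6 had counts enough for testing, while Ces2f and Ces5a had no counts. Of these 6, edgeR called 1 higher in females and 2 higher in males in B6, 1 higher in males in C3, and 1 higher in C3 than in B6 in each sex. In the same order, such calls were made for 3.23%, 3.12%, 2.79%, 4.63% (females) and 4.09% (males) of all genes. Ces1b, which lies next to Ces1c, was at 93.7 ± 8.25 and 57.0 ± 9.34 TPM in B6 females and males and at 689 ± 88.0 and 451 ± 50.9 in C3. The log2 difference of C3 over B6 was 2.94 in females (adjusted P-value 2.63e-16) and 3.07 in males (adjusted P-value 1.74e-16), and that of females over males was 0.61 in B6 (adjusted P-value 3.86e-07) and 0.48 in C3. The sex direction of Ces1b was that of Ces1c. Ces4a was male-biased, at log2 -2.83 in B6 (adjusted P-value 2.41e-05) and -2.14 in C3 (adjusted P-value 4.71e-04), from levels of 0.410 to 2.84 TPM. Ces2b was male-biased in B6. It had 2 to 3 counts in each B6 female and 16 to 393 in the B6 males (adjusted P-value 1.16e-04). The B6 male mean was 4.57 ± 4.79 CPM (counts scaled to the library total), so the SD exceeded the mean. This mean was 56.9-fold the mean B6 female floor of 0.0804 CPM, given by 3 counts per library. The ratio is of means and not a lower limit for single males, the lowest of which had 16 counts. In C3, Ces2b had 0 to 9 counts in females and 1 to 274 in males.

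The upstream windows of Ces1c and Ces1b are shown for the shared sex direction. They are chr8:95655183-95655432 (-) and chr8:95603917-95604166 (-), each 250 bases before the annotated start, with capitals for aligned stretches of at least 8 identical letters. Over the whole alignment 43.1% of positions were identical, with 5 stretches and a longest of 58 letters. A further stretch around ttgcataa occurs in both windows, but the end-to-end alignment did not pair it, so it stays in lower case. The matching block lies at the end of the Ces1b window but farther from the start in Ces1c.
Ces1c: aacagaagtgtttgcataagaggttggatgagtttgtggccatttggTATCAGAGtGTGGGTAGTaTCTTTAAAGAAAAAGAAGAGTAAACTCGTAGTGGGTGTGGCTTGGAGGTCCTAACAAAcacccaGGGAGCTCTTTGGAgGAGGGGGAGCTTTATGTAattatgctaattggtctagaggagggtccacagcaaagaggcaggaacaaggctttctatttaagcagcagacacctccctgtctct
Ces1b: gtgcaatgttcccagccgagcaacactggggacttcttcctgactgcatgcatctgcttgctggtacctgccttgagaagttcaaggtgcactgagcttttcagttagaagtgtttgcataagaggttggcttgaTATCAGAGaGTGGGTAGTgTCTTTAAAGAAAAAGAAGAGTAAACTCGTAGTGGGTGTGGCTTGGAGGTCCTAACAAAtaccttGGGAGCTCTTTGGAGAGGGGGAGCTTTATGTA

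Motifs of liver transcription factors were searched in the windows of all 10 members, on both strands. TTGCNNAA, a core of C/EBP sites, was found in Ces1c, Ces1d and Ces2e and at 2 positions in Ces2a, where 8.89% of 24604 windows of all genes held it. AGGTCA, the half-site of nuclear receptors, was found in Ces2a alone among the members, against 12.7% of windows. TTCNNNGAA, the STAT5 core, and TGACNNNGC, the core of the antioxidant response element, were found in 0 of the 10 members, against 6.84% and 10.6%. No match overlapped another, and a match is a description of these letters only.

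Genes of related function were grouped to place the members among other liver hydrolases. Of 16 other esterases and lipid hydrolases, 2 were female-biased in each strain, against 3.23% of all genes in B6 and 4.11% in C3. In each sex 2 were lower in C3, against 4.77% of all genes in females and 5.55% in males. Bche, the plasma butyrylcholinesterase, was female-biased at log2 0.71 in B6 and 0.77 in C3, from 88.3 ± 7.85 against 49.8 ± 7.17 TPM in B6. Lipc, the hepatic lipase, was female-biased in B6 at 0.65 and Pnpla3, a lipid droplet hydrolase, in C3 at 3.42. Aadac, an arylacetamide deacetylase that shares substrates with the carboxylesterases, was lower in C3 at -0.86 in females and -0.89 in males. Pon1, the plasma paraoxonase, was lower in C3 females at -0.68, and Abhd6, a monoacylglycerol hydrolase, in C3 males at -0.51. None of these 16 was called male-biased, where 3.12% of all genes were in B6 and 2.79% in C3. The sex-by-strain interaction was called for 0 of the 16, where 0.401% of all genes were. A call in a single strain or sex therefore does not show that these effects differed between strains or sexes.

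Genes that act beside the enzymes were also examined. Of 4 genes for endoplasmic reticulum retention and for the egasyn partner beta-glucuronidase, 3 were tested and 0 were called by edgeR in any of the comparisons. Of all genes, between 0.401% and 9.64% were called, depending on the comparison. Gusb itself, which encodes beta-glucuronidase, was at 16.8 ± 2.66 and 18.9 ± 4.20 TPM in females and males of B6 and at 19.7 ± 2.94 and 20.5 ± 3.51 in those of C3, beside Ces1e means of 190, 339, 309 and 600 in the same order. Of 6 genes of very low density lipoprotein assembly, Tm6sf2, which acts in lipid loading of the particle, was female-biased at log2 1.19 in B6 and 1.21 in C3. P4hb, the subunit partner of the microsomal triglyceride transfer protein, was lower in C3 males at -0.57. The other 4 (Apob, Mttp, Cideb and Sar1b) were not called in any comparison.

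Among transcriptional regulators of liver genes, those called by edgeR between the sexes included Cux2, Esr1 and Bcl6. Cux2, a transcription factor of female liver, was at log2 5.56 in B6 and 6.30 in C3. Bcl6, a male-biased repressor that counters STAT5 at its sites, was at -2.44 in B6, and at -1.71 in C3 without a call. Esr1, the estrogen receptor, was female-biased at 1.39 and 1.01. The xenobiotic receptors Nr1i3 and Nr1i2, with log2 values of 0.35 and 0.23 in B6 and 0.26 and 0.22 in C3, were not called.

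Genes around the arrays were examined in the same way. Of 27 genes that lie within 250 kb of a member and are not carboxylesterases, 20 were tested. By edgeR 0 of the 20 were called between the sexes in either strain, against 6.34% of all genes in B6 and 6.90% in C3. The median log2 value of the 20 was 0.065 in B6 and -0.0064 in C3. Between strains 1 of the 20 was called in each sex, against 9.40% of all genes in females and 9.64% in males. The called gene was Lpcat2, a lysophospholipid acyltransferase, lower in C3 at -0.83 in females and -1.15 in males from levels of 0.853 to 2.81 TPM.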

How the data were processed

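RNA of the left lateral lobe of 20 mice was analysed. Strain, sex and pool were taken from the labels. The authors trimmed adapters with Cutadapt 1.9.1, aligned read pairs to mm9 with STAR 2.5.1b and assigned them to RefSeq genes by featureCounts (Subread 1.5.0-p1), by strand and without multimapping or multi-overlapping reads. As mm9 derives from a C57BL/6 mouse, C3 reads were aligned to a genome of the B6 lineage, and the effect of this on strain differences was not tested. The authors deposited raw counts per gene without normalization, and TPM values, for which the definition of gene length is not given in the sources used here. Headers of the symbol and identifier columns are exchanged in the tables, which were read by content.

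Counts were fitted in R 4.3.3 with edgeR 4.0.16 (filterByExpr, TMM, quasi-likelihood, group and pool over all 20 libraries), with Benjamini-Hochberg adjustment over 13704 genes, all 10 members included. Genes were called at an adjusted P-value under 0.001 and a log2 fold change past 0.5. The code was tested on simulated data. For edgeR, the standard error of a log2 value is its size divided by the square root of the F statistic of the test. Levels are TPM, mean ± SD over 5 mice. Alternatives used DESeq2 1.42.0, limma 3.58.1 on log2(TPM + 1) and log2(TPM + 0.1), other normalizations, filters, covariates, libraries and thresholds, and each liver was left out in turn. A count of 3, or 0.0641 to 0.110 CPM per library, was taken as the floor, for counting error only. Sequences were read from the mm9 genome at the deposited coordinates, and transcripts from GENCODE vM1. Other genes named are called genes of the lists, at most 4 per list and comparison, and Gusb, the receptors and the remaining lipoprotein genes were chosen after their values were seen. The members and lists were chosen with earlier results of these data known. Some results on regulators and upstream windows are not reported here.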

Additional observations from a re-analysis of the deposited data

Results flagged for a closer look

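Of 40 sets of 5 livers (10 genes in 4 groups), 2 had a liver far from the others of its group by Dixon's criterion, which chance gives in about 1 of 20 groups. For Ces1g, C3 female replicate 2 was at 296 TPM while the other 4 C3 females lay between 210 and 233 TPM. For Ces2e, C3 male replicate 3 was at 136 TPM while the other C3 males lay between 167 and 176 TPM.

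For 2 genes the sex difference differed between the strains at an adjusted P-value under 0.05 in edgeR's interaction test. The Ces2e term was 0.77 on the log2 scale (adjusted P-value 0.0051) and the Ces1c term was -0.44 (adjusted P-value 0.040). Over the alternatives the adjusted P-value of the Ces2e term ran from 7.12e-05 to 0.58 and that of the Ces1c term from 0.0027 to 1, the highest of each being that of the test against a log2 limit of 0.5.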

How the results depend on the processing

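The number of the 10 genes called stayed within 1.5 times of the reported number under RLE and upper-quartile normalization, without the filter on low counts, with limma and, but for the interaction, with DESeq2, which called 1 gene there. The test against a log2 limit of 0.5 called 2 genes for sex in each strain and 1 for strain in each sex. An adjusted P-value under 0.05 with no fold limit gave 8 genes for strain in females, 7 in males and 2 for the interaction. For strain in females, 2 genes were called without the pool term and 2 with only the groups compared. With pool 3 left out, chosen after seeing the data, 3 genes were called for sex in B6, 1 for strain in females and 1 in males. Leaving out each liver in turn gave 5 to 6 genes for sex in B6, 3 to 5 in C3, 3 to 4 for strain in females, 2 to 4 in males and 0 to 0 for the interaction. With the replicate number as a block, 6, 4, 4, 4 and 0 genes were called. The labels do not say that a number pairs mice, and with the pool removed the mean correlation of same-numbered livers was 0.0997, -0.0132, 0.0640 and 0.0105 in the 4 comparisons, with 1, 1, 2 and 0 of 5 livers correlating best with their own number. Some values near 0 changed sign, and the cause was not tested. The C3 over B6 value of Ces1c in males was -0.00103 with limma at either pseudocount and -0.0020 with pool 3 left out, which also gave -0.041 for Ces1d between sexes in C3 and -0.028 for the Ces1g interaction. The C3 sex value of Ces2a was 0.028 without the pool term. Over single omissions, the interaction ran from -0.18 to 0.024 for Ces1e, from -0.0061 to 0.14 for Ces1g and from -0.11 to 0.28 for Ces2c, and the male strain value of Ces1f from -0.086 to 0.021. Over all genes tested, 869 and 945 were called for sex in B6 and C3, 1288 and 1321 for strain in females and males and 55 for the interaction. These became 421, 482, 815, 881 and 20 without the pool term, 294, 314, 525, 585 and 24 against the log2 limit, 4742, 5479, 4515, 4733 and 405 at an adjusted P-value under 0.05, and 380, 428, 626, 786 and 4 with pool 3 left out. DESeq2 called 181 for the interaction, and with only the groups compared 625 were called for sex in C3. The 442 higher and 427 lower genes in B6 females became 588 and 327 under upper-quartile normalization, and 572 and 260 or 709 and 281 with limma at a pseudocount of 1 or 0.1. The 563 and 382 in C3 became 722 and 310, and 662 and 245 or 876 and 256. At a pseudocount of 0.1 the median of all genes was 0.11 in B6 and 0.12 in C3. The lowest count of any member was 100, above the floor of 3 counts per library.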
